A study of Mus musculus with 4 samples.

Results

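The 7 long noncoding RNA (lncRNA) probes described here lie beside coding genes of the NF-kB and inflammatory response, and were taken from 58809 lncRNA probes and 97836 probes in all on the array. They were chosen by their coding neighbours and by their measured differences from 0 h on these arrays, so that those differences are given as a description. The neighbouring coding genes are Ptgs2, Map3k8, Gbp3, Bcl3, Cd40, Vcam1 and Edn1. RAW264.7, a mouse macrophage-like cell line grown from a virus-induced tumour, was stimulated with ODN1826, a synthetic DNA oligonucleotide with CpG motifs. All 4 groups are RAW264.7 cells given 1 µM ODN1826, and they differ in the time from stimulation to harvest, which was 0, 4, 8 or 16 h. Each time point gave 1 Cy3-labelled RNA sample on 1 array, so there was no replicate and no test across samples could be made. Untreated cells kept for 4, 8 or 16 h were not analysed here, so hours in culture and hours with the oligonucleotide cannot be told apart. No gene names are given for the mRNA probes in the array files, and the levels of the 7 neighbouring mRNAs and of macrophage marker genes were not analysed here.

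CpG DNA is sensed in endosomes by TLR9, which signals through MyD88, IRAK kinases and TRAF6 to the IKK complex and to MAP kinases. IKK frees NF-kB from its inhibitors, and NF-kB then enters the nucleus and turns on genes for cytokines, enzymes of inflammation, costimulatory and adhesion molecules and its own inhibitors. Interferon made in the same response induces a further set of genes, among them the guanylate-binding GTPases. Many of these loci also give rise to noncoding transcripts, and whether such a transcript follows its coding neighbour differs from locus to locus.

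The probes are named by RefSeq transcripts, which the RefSeq gene table pairs with symbols. NR_040328.1 is 4833419F23Rik, and its nearest coding gene is Map3k8, the kinase TPL2 that passes Toll-like receptor signals on to ERK. The probe gi|755520375|ref|XR_391200.2| is Gm34891, which has Gm19345 and Ceacam16 nearer to it than Bcl3, a nuclear protein of the IkB family that binds NF-kB subunits. NR_015466.3 is Ptgs2os, a transcript beside Ptgs2, the gene of the prostaglandin-forming enzyme cyclooxygenase-2. The probe gi|755505675|ref|XR_867676.1| is Gm40158, which overlaps Gbp3, an interferon-induced GTPase, and is read from the opposite strand. The probe gi|755501871|ref|XR_375214.2| is Gm36690, which lies nearer to Cdh22 than to Cd40, the costimulatory receptor of the TNF receptor family. The probe gi|568925397|ref|XR_375971.1| is 5330425B07Rik, beside Vcam1, an adhesion molecule that binds integrins of leukocytes. The probe gi|568982659|ref|XR_382264.1| is Gm32833, beside Edn1, the precursor of the vasoconstrictor peptide endothelin-1. Each named coding gene overlaps its lncRNA or is the next coding gene on that side, and it is also the nearest one for all but Gm34891 and Gm36690.

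Start-site windows of 3 of these lncRNAs are shown because these had the largest differences of the 7, Ptgs2os and Gm34891 at 16 h and Gm40158 at 4 h. Each window runs 5′ to 3′ on the strand of the lncRNA, from RefSeq on build GRCm38.p6, and holds 300 bases around the annotated start. The capitals mark matches to an NF-kB type motif, GGG and CC with 5 bases of any kind between them, searched on both strands, or to the other motifs named below. Ptgs2os is at chr1:150099825-150100124 on the minus strand, Gm40158 at chr3:142569078-142569377 on the minus strand, and Gm34891 at chr7:19829744-19830043 on the plus strand.
Ptgs2os: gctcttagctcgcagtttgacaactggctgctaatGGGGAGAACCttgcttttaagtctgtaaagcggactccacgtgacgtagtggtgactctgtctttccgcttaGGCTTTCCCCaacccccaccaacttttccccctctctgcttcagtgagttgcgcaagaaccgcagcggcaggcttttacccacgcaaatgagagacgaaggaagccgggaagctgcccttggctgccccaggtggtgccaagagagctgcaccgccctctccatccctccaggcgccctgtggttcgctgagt
Gm40158: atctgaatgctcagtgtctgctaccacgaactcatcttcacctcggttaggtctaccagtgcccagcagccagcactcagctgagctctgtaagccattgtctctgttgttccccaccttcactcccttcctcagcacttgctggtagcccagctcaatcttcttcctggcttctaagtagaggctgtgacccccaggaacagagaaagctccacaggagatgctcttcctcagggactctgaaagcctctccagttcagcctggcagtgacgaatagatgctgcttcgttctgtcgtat
Gm34891: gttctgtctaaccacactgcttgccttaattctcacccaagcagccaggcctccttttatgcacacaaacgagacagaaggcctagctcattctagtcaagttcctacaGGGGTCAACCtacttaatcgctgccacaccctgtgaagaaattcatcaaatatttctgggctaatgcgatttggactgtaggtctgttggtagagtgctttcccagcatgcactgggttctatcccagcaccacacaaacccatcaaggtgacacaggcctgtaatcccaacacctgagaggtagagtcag
The window of Ptgs2os shares 256 of its 300 bases, or 85.3%, with the window of Ptgs2 at chr1:150099781-150100080, which is read from the plus strand, so both genes start from the same stretch of DNA in opposite directions. It holds 2 NF-kB type matches, of which the Ptgs2 window holds 1. In all, 7 windows of 6 of the lncRNAs were searched, 2 of them of 5330425B07Rik and none of 4833419F23Rik. The window of Gm34891 holds 1 match and that of Gm40158 none. Of the 32851 mouse promoter windows of this length, 50.8% hold at least 1 such match, so that its presence in 3 of 7 lncRNA windows is near the common share. Gm36690 has the third of them, at chr2:165105465-165105764, with 2 matches, while the window of Gm32833 and both windows of 5330425B07Rik hold none. For an AP-1 type motif, TGANTCA, 1 of the 7 windows has a match, a window of 5330425B07Rik, against 7.81% of all windows. A STAT type motif, TTCNNNGAA, and an IRF type motif, GAAA and GAAA with 2 bases of any kind between them, are in none of the 7 lncRNA windows, against 8.30% and 3.44% of all windows. Among the coding neighbours, the window of Bcl3 has 5 NF-kB type matches, counted with those that overlap each other, the first window of Gbp3 has 1 and 2 IRF type matches, and that of Edn1 has 1 IRF type match. These are matches of letters and not measured binding sites.

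The arrays were alike in overall signal. The 75th percentile of the probes lay between an intensity of 440 at 16 h and 531 at 0 h, between 69.9% and 72.9% of lncRNA probes were well above background, and no spot was saturated. A level below is the log2 intensity of a probe minus the 75th percentile of its array, as a mean over its spots. Ptgs2os and 4833419F23Rik have 1 spot on each array and the other 5 lncRNAs have 2. An error written after a difference is the scanner software's error of the spots on both arrays, which does not include the spread between cultures. Where a probe was not well above background on an array, its fold is given as a bound, taken against the lowest level of a probe with all its spots well above background on that array (between -5.36 and -5.06 over the 4 arrays) or the dim probe's own level where that is higher. A difference called measured was taken against the dim value itself, and the bound beside it is the more cautious value. The bound does not include the scanner error of the brighter level.

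A lncRNA was called higher or lower where its level differed from 0 h by more than 2-fold and either array compared had a spot well above background. At 4 h, 2 of the 7 lncRNAs were higher, 4833419F23Rik and Gm40158, and none was lower, where 5.89% of all lncRNA probes examined were higher and 6.14% were lower. At 8 h, 4 were higher, with Gm34891 and Ptgs2os joining those, against 7.1% of lncRNA probes, and none was lower, against 7.95%. At 16 h, these 4 were higher, against 8.96%, and 5330425B07Rik was lower, against 10.9%. The time points share the 0 h array, and the lncRNAs were chosen with these values known, so nothing is read from the counts. The median log2 difference of the 7, with no background filter, was 0.19, 1.03 and 1.37 at 4, 8 and 16 h. That of all lncRNA probes above background on at least 1 array compared was 0.02, 0.08 and 0.05. The 4 h median of the 7 is the value of Ptgs2os, which was not well above background on either array, so the 2 medians at 4 h are of unlike sets. Gm36690 and Gm32833 were not called at any time point.

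**Figure D1:**
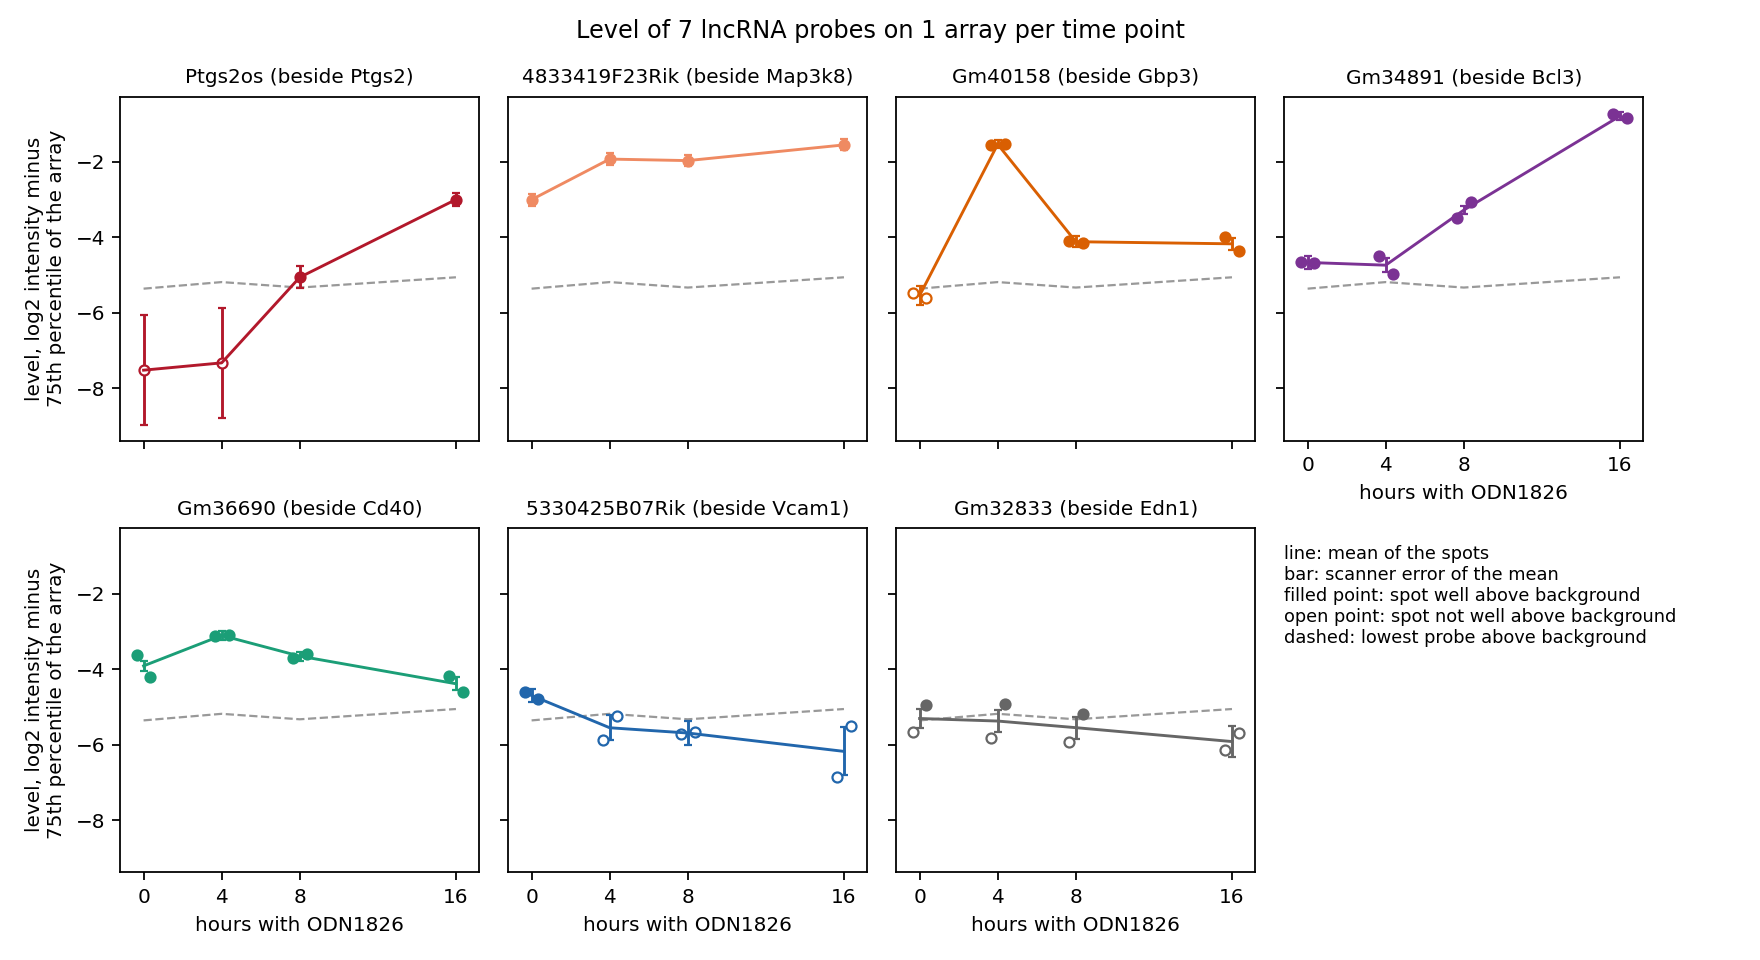
Level of each of the 7 lncRNAs (log2 intensity minus the array's 75th percentile, vertical) against hours with ODN1826 (horizontal), with 1 array per time point. Points are spots, filled where well above background, lines join the means of the spots, bars are the scanner error of the mean, and the dashed line is the lowest probe with all spots above background; Gm40158 peaks at 4 h, while Ptgs2os and Gm34891 are highest at 16 h.

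Among the lncRNAs beside regulators of signalling, 4833419F23Rik, next to Map3k8, was higher from 4 h on and stayed within 2-fold of that level. Its intensities were 66.3, 132, 126 and 150.0 at 0, 4, 8 and 16 h. The 3 later time points lay above 0 h and close to each other. On the log2 scale these exceeded 0 h by 1.07 ± 0.21, 1.03 ± 0.21 and 1.45 ± 0.21, that is 2.11-fold, 2.05-fold and 2.73-fold. From 4 h to 8 h its level differed by -0.04 ± 0.21, which is within the scanner error, and from 8 h to 16 h by 0.42 ± 0.21. This lncRNA was above background on every array, yet 5.22%, 6.68% and 4.56% of the lncRNA probes examined had a larger difference at 4, 8 and 16 h. With normexp background correction and an offset of 50, which shrinks differences of dim spots, it stayed below 2-fold, at 0.69, 0.76 and 0.94. Where the percentile came from detected probes alone, the 8 h difference was 0.99, just below 2-fold.

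Gm34891, on the side of Bcl3, did not differ between 0 h and 4 h beyond the scanner error and was higher afterwards. The intensities at 0, 4, 8 and 16 h were 20.9, 18.9, 50.9 and 255. The order of the levels was 16 h, 8 h and then 0 h with 4 h, which differed by less than the scanner error (-0.07 ± 0.26). At 8 h the difference from 0 h was 1.39 ± 0.21 (2.61-fold), and at 16 h it was 3.88 ± 0.20 (14.7-fold). Both spots were above background on all arrays. Their differences from 0 h were 1.16 and 1.62 at 8 h, and 3.85 and 3.90 at 16 h. The increase was spread over both later steps, with 1.46 ± 0.22 (2.75-fold) from 4 h to 8 h and 2.49 ± 0.15 (5.62-fold) from 8 h to 16 h. The spots gave 1.00 and 1.92 for the first of these steps and 2.23 and 2.74 for the second, further apart than the scanner error. Of the lncRNA probes examined, 0.193% had a larger difference at 16 h, one of the values by which it was chosen. The 16 h difference was 2.28 and the 8 h difference 0.59 under normexp, so that the latter was no longer past 2-fold.

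Ptgs2os, which shares its start region with Ptgs2, came above background between 4 h and 8 h. Its intensities ran from 2.90 at 0 h and 3.14 at 4 h to 14.8 at 8 h and 55.0 at 16 h. The values at 0 h and 4 h were not well above background and have no order. By the bounds it was at least 1.23-fold higher at 8 h than at 0 h and at least 5.13-fold higher at 16 h. The 8 h bound, 0.30 on the log2 scale, is about the size of the scanner error of the 8 h level, 0.29. The measured differences, 2.46 ± 1.48 and 4.52 ± 1.46 on the log2 scale, carry a wide error from the dim spot at 0 h, and the 8 h value is 1.66 times its error. Between 8 h and 16 h, where it was above background on both arrays, the level differed by 2.06 ± 0.34 (4.17-fold). The 8 h difference was 0.40 and the 16 h difference 1.21 under normexp, and only the latter was past 2-fold. With 1 spot, its spot-to-spot spread cannot be given.

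Gm40158, which overlaps the interferon-induced Gbp3, was highest at 4 h and lower afterwards. At 0, 4, 8 and 16 h its intensities were 11.4, 174, 28.5 and 24.4. The level at 0 h was not well above background on either spot, the level at 4 h stood above all others, and those at 8 h and 16 h did not differ beyond the scanner error (-0.06 ± 0.22). Against 0 h it was at least 14.2-fold higher at 4 h, and later at least 2.37-fold (8 h) and at least 2.28-fold (16 h) higher. From 4 h to 8 h it was 5.98-fold lower, a difference of -2.58 ± 0.18 between arrays on both of which it was above background. The measured difference from 0 h was 4.00 ± 0.28 at 4 h on the log2 scale, and the bound corresponds to 3.82. Under normexp the 3 differences were 1.75, 0.40 and 0.42, the later ones below 2-fold. The sequence of the probe is not in the files used here, so signal from Gbp3 transcripts and from Gm40158 cannot be told apart.

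Gm36690, on the side of Cd40, differed by less than 2-fold from 0 h throughout as the mean of its spots. Its intensities were 35.2, 58.4, 39.1 and 21.0 at 0, 4, 8 and 16 h. It was highest at 4 h and lowest at 16 h, and 0 h and 8 h, which differed by 0.26 ± 0.18, lay between. Against 0 h the difference was 0.81 ± 0.17 (1.75-fold) at 4 h and -0.47 ± 0.21 at 16 h. At 4 h its spots gave 0.50 and 1.12, on either side of the 2-fold limit, and the spots at 0 h had intensities of 42.9 and 28.9. Between 4 h and 16 h it was 2.43-fold lower, a difference of -1.28 ± 0.20, with both spots above background on all arrays. The 16 h difference from 0 h had the opposite sign under normexp, at 0.04.

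5330425B07Rik, beside Vcam1, was above background at 0 h alone. The intensities were 20.4 at 0 h and then 10.7, 9.55 and 6.07. After 0 h both spots were not well above background, and these 3 values have no order. By the bounds it was lower than at 0 h at least 1.40-fold (4 h), at least 1.55-fold (8 h) and at least 1.28-fold (16 h). Its measured differences were -0.85 ± 0.37, -0.99 ± 0.35 and -1.48 ± 0.66, so that it lay just inside the 2-fold limit at 8 h and past it at 16 h. At 16 h its spots, both dim, gave -2.25 and -0.71, on either side of that limit. None of these bounds reaches 2-fold, and under normexp the differences were -0.11, -0.13 and -0.02. With quantile normalization the 8 h difference was -1.12 and with scaling by detected probes -1.04, both past 2-fold.

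Gm32833, beside Edn1, was near background throughout. Its intensities were 13.4, 12.1, 10.5 and 7.27 in the same order of time. At 0 h, 4 h and 8 h, 1 of its 2 spots was well above background, and at 16 h none was. Its differences from 0 h were -0.07 ± 0.38, -0.24 ± 0.38 and -0.61 ± 0.49. Those at 4 h and 8 h were within the scanner error, and that at 16 h was 1.26 times the error. No fold is given at 16 h because the 0 h level was below the lowest level above background on the 16 h array. Under normexp the 16 h difference was 0.14, with the opposite sign.

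**Figure D2:**
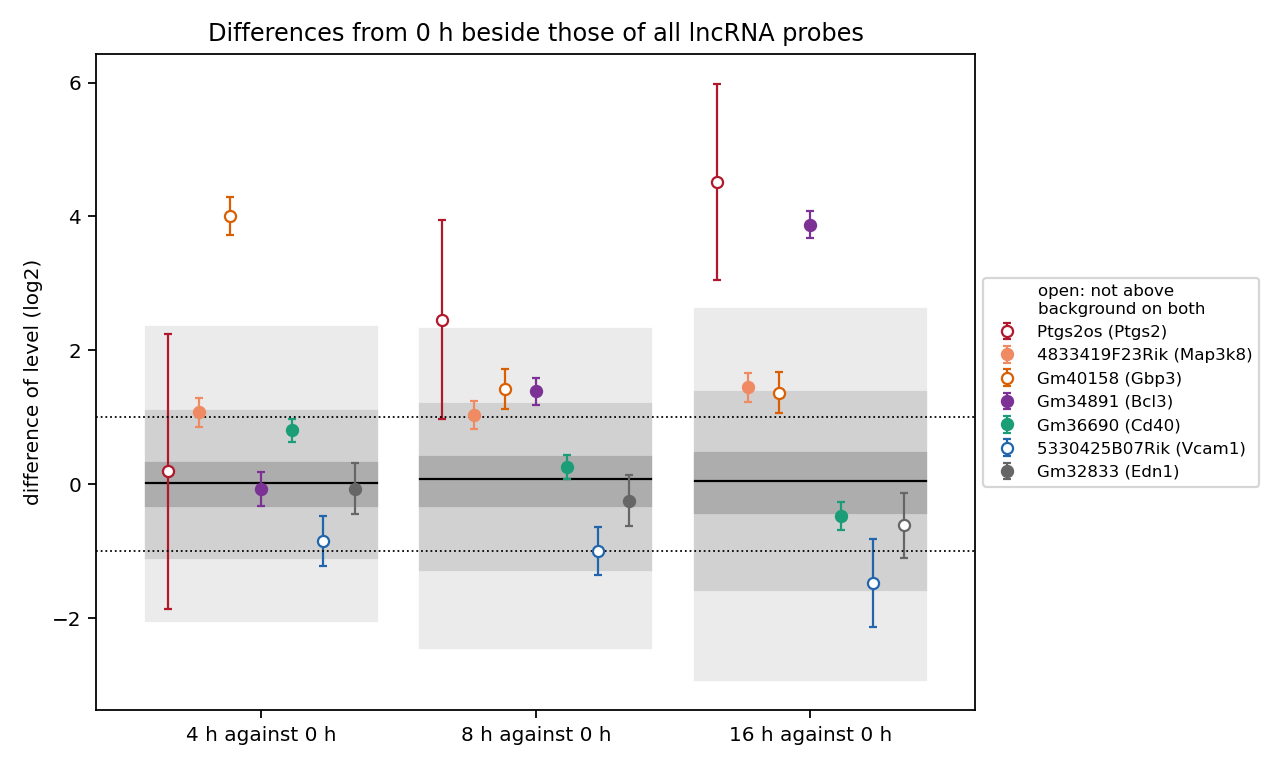
Difference of level from 0 h (log2, vertical) of the 7 lncRNAs at 4, 8 and 16 h (horizontal), with bars for the scanner error and open points where the probe was not above background on both arrays. Grey bands hold the middle 50%, 90% and 98% of all lncRNA probes examined with their median as a line, and dotted lines mark 2-fold; Gm40158 at 4 h, Ptgs2os at 8 h and 16 h and Gm34891 at 16 h lie outside the widest band, while the bounds of Ptgs2os (0.30 at 8 h and 2.36 at 16 h) lie inside it.

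Between successive time points, which leave the 0 h array aside, the lncRNAs were called at different times. From 4 h to 8 h, Ptgs2os and Gm34891 were called higher, against 4.92% of all lncRNA probes examined, and Gm40158 was called lower, against 5.37%. For Ptgs2os, dim at 4 h, the measured step was 2.27 ± 1.48 and the bound at least 1.09-fold. That bound, 0.13 on the log2 scale, is within the scanner error of the 8 h level, 0.29. From 8 h to 16 h, Ptgs2os and Gm34891 were higher again, against 3.42%, and none of the 7 was lower, against 4.33%. 4833419F23Rik was within 2-fold in both steps. From 4 h to 16 h, Ptgs2os (at least 4.55-fold) and Gm34891 (15.4-fold) were higher, against 7.9%, and Gm40158 (6.21-fold) and Gm36690 were lower, against 9.37%. 4833419F23Rik and Gm40158 were higher than 0 h each time, against 1.74% of lncRNA probes, and none of the 7 was lower each time, against 2.55%.

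Further lncRNA probes of the same loci were found through the gene table, 5 in all. Gm31384, whose nearest coding gene is also Vcam1, was not above background on any array, with intensities between 2.66 and 5.22. Gm31651 on the side of Vcam1 and Gm36748 on the side of Cd40 were not above background on any array either. Beside Edn1, Gm32778 was above background at 8 h alone, at an intensity of 8.32. Gm15813, also on the side of Edn1, was above background on every array, with intensities of 50.6, 127, 62.8 and 58.7 at 0, 4, 8 and 16 h. It was highest at 4 h, 1.40 above 0 h on the log2 scale.

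To set the 7 beside other lncRNAs of the pathway, 5 lists of 144 genes were used: NF-kB subunits and inhibitors, signalling from TLR9 to NF-kB and MAP kinases, cytokines and chemokines, inflammatory effectors with receptors and adhesion molecules, and interferon and guanylate-binding genes. A listed gene was the nearest coding gene of 41 probes for 35 lncRNA genes, among them Ptgs2os, 4833419F23Rik, Gm40158, 5330425B07Rik and Gm32833. Without these 5, 7 of the 27 probes examined were higher by more than 2-fold at 4 h, 5 of 27 at 8 h and 7 of 26 at 16 h, and 1, 1 and 0 were lower. With these 5 included, 9 of 31, 8 of 32 and 10 of 31 were higher and 1 was lower each time. Over all lncRNA probes with a nearest coding gene in the table, 6.62%, 7.13% and 9.88% were higher at 4, 8 and 16 h, and 4.88%, 5.78% and 7.52% were lower. Without these 5, the median difference of the listed probes was 0.35, 0.59 and 0.50 on the log2 scale. Over all those with a nearest coding gene it was 0.05, 0.10 and 0.11. Several probes share a lncRNA or a coding gene, so they are not independent. The lists were chosen with earlier results of these data known. Some probes counted as higher were above background only on the later array, where they were high. The counts and medians are therefore a description and not a test. A gene on either side in place of the nearest, with all of the 7 left out, gave 9 of 53, 6 of 53 and 7 of 51 higher.

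By list, the counts of higher probes varied over time, with few probes in each list. Among the probes that are not of the 7, cytokine and chemokine neighbours had 2 of 5 higher and 1 lower at 4 h, 1 of 5 higher at 8 h and 0 of 4 at 16 h. Of these 5 probes 4 are of 1 lncRNA, Gm32650 beside Ccl5, and the higher ones are all among them. Its probe XR_880082.1 dropped out at 16 h because neither array compared was above background, at a measured difference of 2.14. Neighbours of interferon and guanylate-binding genes had 1 of 7 higher at 4 h, 0 of 6 with 1 lower at 8 h, and 3 of 6 higher at 16 h. Neighbours of effectors, receptors and adhesion molecules had 3 of 9, 2 of 10 and 2 of 10 higher, those of TLR9 signalling 1, 2 and 1 of 5, and the single probe examined for NF-kB subunits and inhibitors was higher at 16 h alone. These counts are too small to rank the lists, and the differences between them were not tested.

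Among listed neighbours above background at 0 h and 16 h, the largest differences at 16 h were those of Gm34545, Gm41236 and 4833419F23Rik. Gm34545, beside Irak3, an inhibitor of Toll-like receptor signalling, had intensities of 27.9, 41.1, 89.3 and 68.2 at 0, 4, 8 and 16 h and a difference of 1.56 ± 0.18 at 16 h. Gm41236, beside Acod1, the enzyme that makes itaconate, had 1034, 2484, 2374 and 2377 and a difference of 1.47 ± 0.14. Like 4833419F23Rik, it was higher from 4 h on. The smallest differences were -0.61 ± 0.27 for Gm31882 beside Saa3, an acute phase protein, -0.52 ± 0.18 for the probe XR_880080.1 of Gm32650 beside the chemokine gene Ccl5, and -0.47 ± 0.23 for Gm31417 beside the interferon-induced gene Ifit2. All 3 stayed within 2-fold at 16 h.

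**Figure D3:**
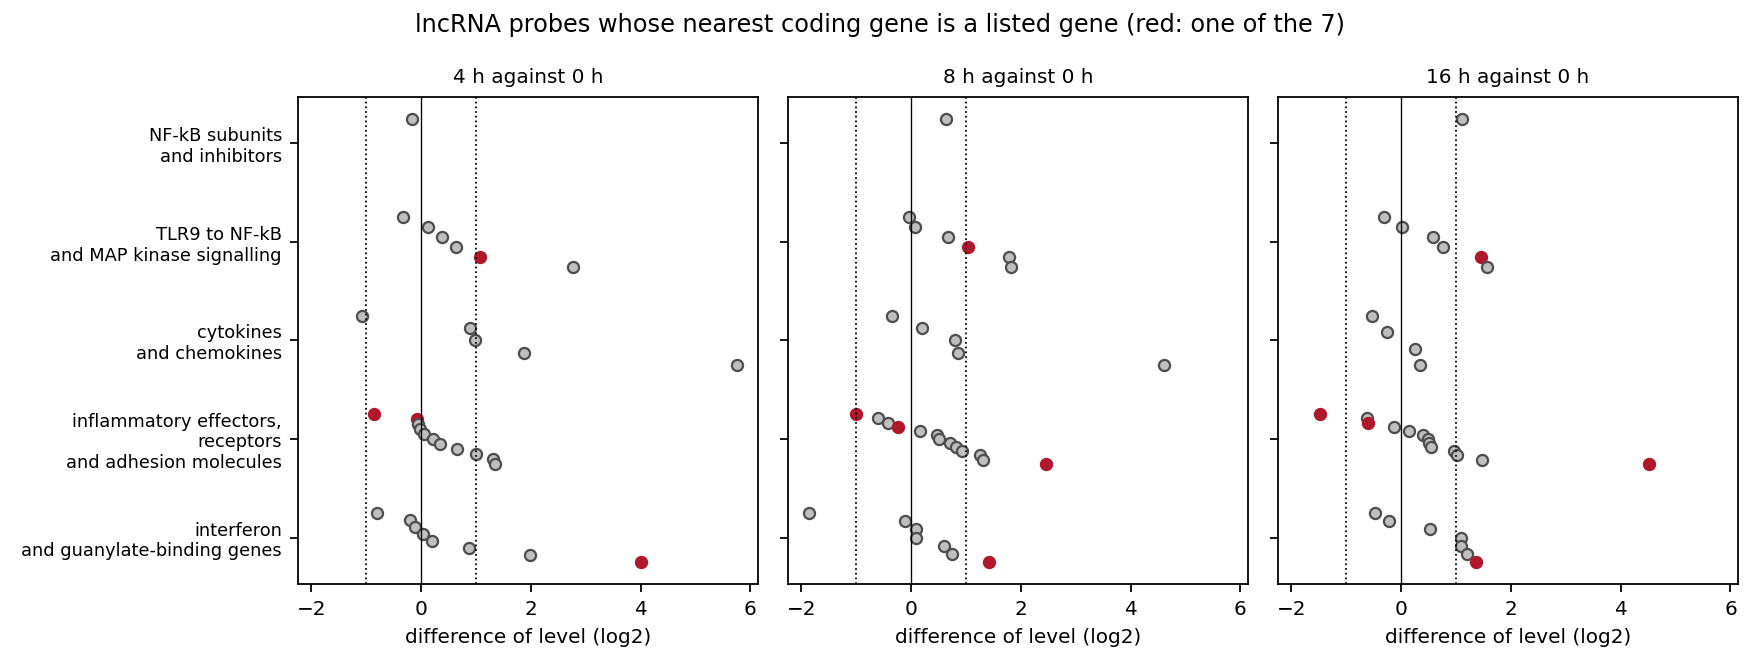
Difference of level from 0 h (log2, horizontal) of lncRNA probes whose nearest coding gene is in a list (vertical: the 5 lists), at 4, 8 and 16 h, for probes above background on at least 1 array compared; red points are those of the 7 and dotted lines mark 2-fold. Gm40158 stands apart in the interferon list at 4 h and Ptgs2os in the effector list at 16 h (measured 4.52, bound 2.36). A probe of Gm32650 in the cytokine list, not of the 7, lies further out at 4 h, at 5.76 against a dim 0 h value.

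For the 3 lncRNAs above background on every array, the most similar time courses were sought among 2606 lncRNA probes with a symbol in the gene table, by the Euclidean distance over the 3 differences from 0 h. Gm40450 lay closest to 4833419F23Rik, at a distance of 0.05 and with differences of 1.06, 1.07 and 1.47 at 4, 8 and 16 h, followed by Gm15704 at 0.17. Gm34891 had no match as close. Such a distance grows with the size of the differences, by which Gm34891 was chosen, so nothing is read from it. The nearest to Gm34891, Gm40324 and 4930579K19Rik, lay at distances of 1.05 and 1.20, and Gm40324 had differences of 0.33, 1.17 and 2.93. Gm36690 was most similar to Gm35887, at 0.19 and with differences of 0.96, 0.33 and -0.56, and to 2310010J17Rik, at 0.24. With 3 differences that share the 0 h array, such likeness is a description of these arrays.

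The background correction changed the size of the differences more than the other settings tried. Normexp moved 16 of the 21 differences of the 7 lncRNAs beyond their scanner error, and left Gm40158 at 4 h and Ptgs2os and Gm34891 at 16 h past 2-fold. The other 4 lncRNAs were within 2-fold at all time points under it. Scaling by quantiles or by detected probes alone and the inclusion of outlier spots moved none of the 21 by more than its scanner error. None of the spots of the 7 was an outlier, so their inclusion could change only the array's percentile. Scaling by detected probes shifts all probes of an array alike. Little is therefore read from the agreement under these 2 settings.

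**Figure D4:**
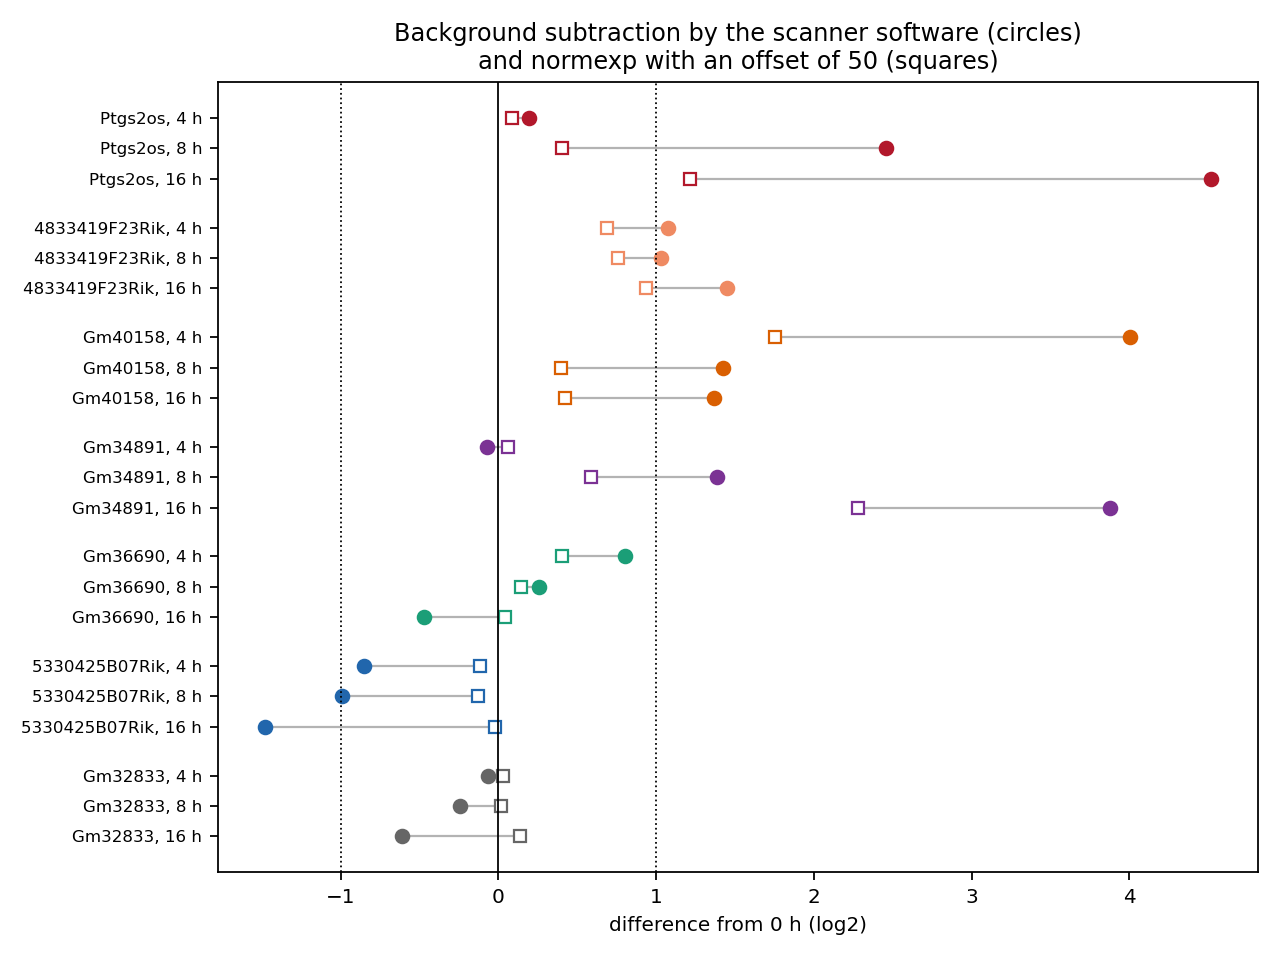
Difference from 0 h (log2, horizontal) of each lncRNA at 4, 8 and 16 h (vertical) with the scanner software's background subtraction (circles) and with normexp and an offset of 50 (squares), joined by a line; dotted lines mark 2-fold. Squares lie nearer to 0 than circles for every called difference, and 3 squares lie past 2-fold.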

How the data were processed

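RAW264.7 cells were stimulated with 1 µM ODN1826 for 0, 4, 8 or 16 h, with 1 single-colour Agilent array per time point, on 1 slide and in 1 scan. The authors deposited scanner intensity values from Agilent Feature Extraction (11.5.1.1 in the file header, 10.7 in the submitters' processing notes), which subtracts background within each array. The deposited table of log2 values, normalized by the authors in GeneSpring, was used as an alternative and holds 5 of the 7 lncRNAs. Control and outlier spots were left out, log2 intensities were averaged per probe, and each array's 75th percentile was taken off. The calling procedure was tested on simulated data, which says nothing of the spread between cultures. The 7 lncRNAs, the gene lists and the motifs were chosen with earlier results of these data known. The RefSeq table, matched without versions, held 4656 (35.8%) of the 13017 lncRNA probes named by RefSeq accession. The file headers name build mm9 and the table GRCm38.p6, so the table gave names, neighbours and promoter windows. Named besides the 7 and their neighbours were lncRNAs with a neighbour of the 7 as nearest coding gene or as the next one on either side. The planned rule took the nearest alone, which only Gm31384 met. Also named were the 3 largest and 3 smallest differences at 16 h among listed neighbours above background at 0 h and 16 h. The 2 most similar lncRNAs were named for each of the 7 above background throughout. Alternatives were normexp with an offset of 50, run on median signals because the files hold no mean signals, outlier spots kept, the deposited values, scaling by quantiles or by detected probes alone, other background filters and a limit of 1.96 times the scanner error. Having all spots above background, neighbours on either side, and leaving out those of the 7 from the list counts were added after the data were seen. Normexp was run with limma 3.58.1 in R 4.3.3, and all else with pandas 2.3.3, numpy 2.4.6 and matplotlib 3.10.9 under Python 3.11.15.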

Additional observations from a re-analysis of the deposited data

How the results depend on the processing

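The 21 differences from 0 h moved by less than the scanner error with outlier spots kept and with scaling by quantiles or by detected probes alone, and so did the 15 that the deposited values hold. They kept their direction, apart from Ptgs2os at 4 h, below background on both arrays, with 0.19 and -0.011 by quantiles. Keeping outlier spots or scaling by detected probes shifted all of the 7 alike on an array, and the deposited values were almost the main levels. Apart from quantiles, these settings could therefore hardly move a difference past the scanner error. Normexp with an offset of 50 moved 16 of the 21 beyond it: Ptgs2os to 0.40 at 8 h and 1.21 at 16 h, 4833419F23Rik to 0.69, 0.76 and 0.94 at 4, 8 and 16 h, Gm40158 to 1.75, 0.40 and 0.42, Gm34891 to 0.59 at 8 h and 2.28 at 16 h, Gm36690 to 0.40 at 4 h and 0.042 at 16 h, 5330425B07Rik to -0.11, -0.13 and -0.020, and Gm32833 to 0.14 at 16 h. Those of Gm36690 and Gm32833 at 16 h changed sign, as did Gm34891 at 4 h and Gm32833 at 4 h and 8 h within their error. The median of all lncRNA probes at 16 h was 0.13 under it. Of the 7 lncRNAs, those higher than 0 h numbered 1, 0 and 2 at 4, 8 and 16 h under normexp (2.15%, 2.04% and 3.32% of all lncRNA probes), and 1, 2 and 2 where both arrays had to be above background (4.53%, 5.19% and 7.43%). At all 3 time points, 0 were higher under normexp, 1 with scaling by detected probes and 1 with both arrays above background. The share of all lncRNA probes higher at all 3 was not computed under these settings, so nothing is read from these counts.

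For the lncRNAs beside listed genes, with 5 of the 7 among them, normexp gave 5, 3 and 2 higher and 0 lower at 4, 8 and 16 h. Both arrays above background gave 6, 5 and 7 higher and 1, 0 and 0 lower at 4, 8 and 16 h. The shares over all lncRNA probes with a nearest coding gene were not computed under these settings, so nothing is read from the counts. At 8 h, lower probes numbered 2 with scaling by quantiles or by detected probes, and 0 with the deposited values and with all spots above background. A neighbour on either side, which takes in all of the 7, gave 3, 2 and 2 lower at 4, 8 and 16 h. Leaving out those 5 gave 5 higher at 8 h and 0 lower at 16 h. The cause of these changes was not tested. No paired analysis was possible because each time point has 1 array, and no replicate could be left out. The number of arrays limits all differences, and 4 of the 7 lncRNAs were not above background on at least 1 array.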

Other observations

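Beyond the 7, some lncRNAs beside listed genes had an early peak as Gm40158 did. They are named here after their values were seen, and not all such lncRNAs are named. Gm28913, beside Ikbke, an IKK-related kinase of the interferon response, had intensities of 862, 5553, 2813 and 1208 at 0, 4, 8 and 16 h. It was well above background on every array and highest at 4 h, with differences from 0 h of 2.76 ± 0.14, 1.81 ± 0.14 and 0.76 ± 0.14 on the log2 scale at 4, 8 and 16 h. Gm32650, beside Ccl5, a chemokine that draws in T cells and monocytes, has 4 probes. Their values were highest at 4 h, although for XR_880078.1 those at 4 h and 8 h (0.89 and 0.80 above 0 h) lay within the scanner error of each other. The probe XR_880082.1 had intensities of 2.74, 141, 62.1 and 9.98 at 0, 4, 8 and 16 h with neither spot well above background on the 0 h and 16 h arrays. Its other probes differed from 0 h by 0.99, 0.89 and 1.87 at 4 h and by 0.26, -0.25 and -0.52 at 16 h. Gm41453, beside Cd80, a costimulatory ligand on antigen-presenting cells, had a flatter course without a peak at 4 h. Its intensities were 49.0, 93.4, 108 and 78.8. None of these values has a replicate array.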
